A study of Saccharomyces cerevisiae with 8 samples.

Results

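The subject is the variation among 4 low-iron cultures of baker's yeast, Saccharomyces cerevisiae, that were grown as replicates of one condition. They are 4 of the 8 cultures of the study, each read on its own array. Low-iron arrays 1 and 2 were set against low-iron arrays 3 and 4. These pairs were chosen by the measured values themselves, because the arrays had been seen to separate this way, so the difference of the pairs is a description, with 2 arrays a side, and no test of it is given. Of 5449 genes on the array, 5100 had a mean signal above 50 on the low-iron arrays and are called measured here. The other 349 genes were at or under that floor.

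All 8 cultures were of the laboratory strain DBY7286 and were grown independently in a synthetic minimal medium of defined iron content. The medium of every culture held 1 µM copper sulfate, 25 mM MES buffer at pH 6.1 and 1 mM Ferrozine, a chelator that binds ferrous iron. The low-iron cultures received 10 µM ferrous ammonium sulfate and the 4 high-iron cultures 300 µM. All cultures were kept at 30 °C, were harvested after some 18 h when the A600, a measure of cell density, was 0.5, and gave up their RNA to Trizol. The labels call the cultures independent but do not tie low-iron cultures 1 and 2, or 3 and 4, to each other in any way.

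As background, yeast that is short of iron turns on the iron regulon through the transcription factors Aft1 and Aft2, which raises reductases, permeases and siderophore carriers at the cell surface, and it lowers many enzymes that need iron. Cultures that share a medium can still differ in how much glucose, nitrogen or sulphate is left, in growth rate and in the share of cells in each phase of the division cycle. Well-studied gene groups read out such states. Low or falling glucose turns on high-affinity hexose transporters, rapid growth goes with genes for ribosome assembly, and poor nitrogen sources relieve the repression of genes for proline, allantoin and ammonium uptake.

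Array signals had been put on a common level, with a mean of 500.2 on each array after trimming, and no array had a top signal under 6597. The 3′ to 5′ ratio of the actin control lay between 1.15 and 1.30 on the 8 arrays. The 17 ribosomal RNA probe sets had a median signal of 2682 and 2567 on low-iron arrays 1 and 2, 3371 and 3707 on low-iron arrays 3 and 4, and 3744 to 4321 on the high-iron arrays. Ribosomal RNA thus read lower on arrays 1 and 2, and its part in the differences below was not tested. The 7 a-cell genes were all above the floor, with STE2, the alpha-factor receptor, at 4015 to 4571 on the low-iron arrays. Of the alpha-cell genes, STE3 and both alpha-factor genes read 4.67 to 52.7 there, while SAG1 and AFB1 averaged 339 and 148. The summed signal of the a-cell genes was 14561, 13542, 12998 and 14375 on low-iron arrays 1 to 4, and that of the 5 alpha-cell genes was 554, 554, 571 and 556. The a-cell sums of the pairs overlapped, and the alpha-cell sums lay close together.

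Most genes read alike in the 4 low-iron cultures. The difference of the pairs, the mean log2(signal + 1) of arrays 1 and 2 minus that of arrays 3 and 4, had a median of 0.04, with a 5th percentile of -0.41 and a 95th percentile of 0.39. It was under 0.5 in size for 4817 genes (94.5%) and under 1, or 2-fold, for 99.4%. A gene is called apart below when the pairs differed by at least 1 on this scale and their values did not overlap. There were 30 such genes. Of these, 23 (0.451% of measured genes) read higher on arrays 3 and 4, and 7 (0.137%) read higher on arrays 1 and 2. At a difference of at least 0.5 without overlap there were 148 genes (2.9%) higher on arrays 3 and 4 and 129 (2.53%) higher on arrays 1 and 2. Without regard to size, the pairs did not overlap for 1140 genes (22.4%) higher on arrays 3 and 4 and for 1769 genes (34.7%) higher on arrays 1 and 2. In bulk RNA, fewer cells of a kind and less RNA per cell cannot be told apart, here or below.

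The separation was uneven. Arrays 3 and 4 were at least 2-fold apart for 4 genes, a number in the range of the high-iron arrays, any 2 of which were this far apart for 2 to 7 genes. Arrays 1 and 2 were 2-fold apart for 19 genes. Array 1 differed from array 3 for 74 genes and from array 4 for 64, while array 2 differed from them for 22 and 29. Array 1 was thus the farthest from arrays 3 and 4, and by this count array 2 was about as close to array 1 as to array 3. By the median log2 distance over all measured genes, array 2 was closer to array 1 (0.10) than to array 3 or 4 (0.14 each). The first principal component of the 4 low-iron arrays held 69.5% of their variance, with scores of 13.25 and 5.24 for arrays 1 and 2 and -9.62 and -8.87 for arrays 3 and 4. Among the 30 genes apart, array 1 lay farther out than array 2 for 25. Their median distance was 0.64 between arrays 1 and 2 and 0.18 between arrays 3 and 4.

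**Figure D1:**
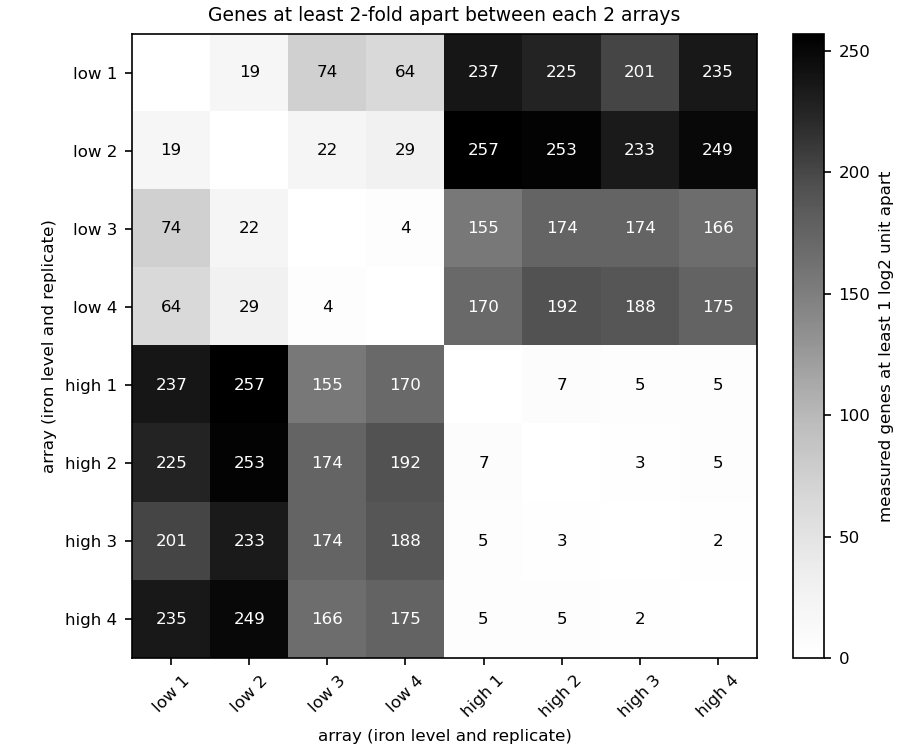
Number of measured genes at least 1 log2 unit (2-fold) apart between each 2 of the 8 arrays, low iron 1 to 4 and high iron 1 to 4, with darker squares for more genes. Low-iron arrays 3 and 4 differ for 4 genes, array 1 differs from them for 74 and 64, and low-iron and high-iron arrays differ from each other for 155 to 257.

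Set against high iron, arrays 1 and 2 were also the more distant. Each of them was 2-fold apart from a high-iron array for 201 to 257 genes, whereas arrays 3 and 4 were for 155 to 192. Array 2 was the farthest from high iron by this count (233 to 257 genes) and not array 1. On the first principal component of all 8 arrays, which held 76.4% of the variance and separated the iron levels, the low-iron scores were 17.6, 20.6, 13.75 and 14.8 and the high-iron scores -16.0 to -17.3. On the second, which held 12.8%, the low-iron scores were 12.8, 3.81, -9.74 and -9.07, and the 4 high-iron arrays lay between them, from -2.52 to 3.57.

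Genes for taking up and sensing glucose stood out among those higher on arrays 3 and 4. HXT4, a high-affinity hexose transporter, read 424 and 1133 on low-iron arrays 1 and 2 and 2566 and 2442 on arrays 3 and 4. The difference of the pairs was -1.85, and the high-iron arrays, at 2722 to 3230, were above all 4. MTH1, a repressor in the glucose-sensing pathway that shuts hexose transporter genes when glucose is absent, read 78.3 and 182 against 440 and 394, a difference of -1.79. Array 1 was the lowest for both genes and array 2 lay between it and the other pair. HXT7, another high-affinity transporter, read 528 and 683 against 1972 and 1717, a difference of -1.61, and 3603 to 4342 in high iron. Its probe set is of a kind shared by similar sequences, and HXT6 is a near-identical copy, so the signal may come from either gene.

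Of 13 measured genes on a list for hexose transport and its control, 6 had pairs without overlap that were higher on arrays 3 and 4, and 1 was higher on arrays 1 and 2, where 22.4% and 34.7% of all measured genes were. Of the 13, 5 were higher on arrays 3 and 4 by at least 0.5 without overlap, as 2.9% of all measured genes were. Besides the 3 above these were SNF3, the sensor of low glucose, with a difference of -0.53, and HXT2, a transporter of intermediate affinity, with -0.51. The list's median was -0.20, against 0.04 for all measured genes, and its remaining members, such as the low-affinity transporter HXT1 (-0.25) and the high-glucose sensor RGT2 (0.30), differed less. RGT2 was the member higher on arrays 1 and 2, with 378 and 322 against 296 and 273.

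Some maltose genes also read higher on arrays 3 and 4. MAL33, the activator of a maltose gene cluster, read 75.4 and 141 on arrays 1 and 2 and 258 and 244 on arrays 3 and 4 (difference -1.28), with 177 to 313 in high iron. The maltose permease genes MAL31 and MAL11 had differences of -0.996 and -0.988, and the maltase gene MAL32 -0.64. MAL11 read 43.8 and 60.9 against 109 and 98.2, and MAL32 56.35 and 47.2 against 79.3 and 82.9, both close to the floor on arrays 1 and 2. Array 1 was lowest for MAL33, MAL31 and MAL11, and array 2 for MAL32. MAL13, another maltose activator gene, differed by -0.02. The galactose genes on the same list did not share this: GAL7 and GAL10 read higher on arrays 1 and 2, by 0.28 and 0.29, at signals of 45.4 to 78.3 that are close to the floor. The 10 measured genes of the list had a median of -0.05.

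Another 4 of the genes apart are HAP4, MPC3, REG2 and RGI1. HAP4, the activating subunit of the complex that turns on respiratory genes, read 246 and 524 on low-iron arrays 1 and 2 and 835 and 794 on arrays 3 and 4, a difference of -1.18, and 1001 to 1163 in high iron. MPC3, a subunit of the mitochondrial pyruvate carrier, read 123 and 130 against 248 and 278 (-1.05), and 782 to 987 in high iron. REG2, a regulatory subunit of the protein phosphatase Glc7, read 37.5 and 36.7 against 81.6 and 80.2 (-1.10), and 112 to 141 in high iron. In contrast to HXT4, MPC3 and REG2 were equally low on arrays 1 and 2. RGI1, a gene induced in respiratory growth, read 539 and 664 against 1811 and 1276 (-1.34), and 758 to 1044 in high iron, between the pairs. No measured gene of the lists for the respiratory chain and the tricarboxylic acid cycle was apart. The respiratory chain list had a median of 0.02 over 21 measured genes that went from -0.22 to 0.21 without each low-iron array in turn, and its largest difference was that of NDE1, an external NADH dehydrogenase (-0.80).

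HSP30 had the largest difference of all measured genes. It encodes a small heat shock protein of the plasma membrane that restrains the proton pump Pma1. Its signal was 77.8 and 71.0 on low-iron arrays 1 and 2, 466 and 328.5 on arrays 3 and 4, and 132 to 157 in high iron. The difference was -2.38, and the high-iron arrays lay between the pairs. It separated arrays 2 and 4 (-2.19) nearly as far as arrays 1 and 3 (-2.57). Among 27 measured genes of a list of heat shock proteins and chaperones, 12 had pairs without overlap higher on arrays 1 and 2 and 5 higher on arrays 3 and 4, near the 34.7% and 22.4% of all measured genes. HSP78, a mitochondrial chaperone, read higher on arrays 1 and 2 by 0.76, while CUR1, which sorts misfolded proteins, and HSP12, a membrane-protecting stress protein, read higher on arrays 3 and 4 by 0.73 and 0.51 (differences of -0.73 and -0.51). The median of this list was 0.02, and -0.00429 under one of the other scalings.

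The remaining genes higher on arrays 3 and 4 have varied roles. PHO89, a sodium and phosphate cotransporter, read 607.5 and 870 against 1512 and 1402, and KNH1, which acts in the making of cell wall glucan, read 396.5 and 562 against 1075 and 862.5. Their differences were -1.001 and -1.03, at the lower limit for being called apart. STP4, a zinc finger protein, read 301.5 and 469.5 against 1021 and 953 (-1.39). DIA1, named for its effect on invasive growth, read 207 and 220 against 433 and 483 (-1.10). SPO19, a gene of spore formation, was dim at 34.7 and 18.0 against 99.7 and 122.5 (-2.10), near the floor. Of 7 meiosis markers 3 were above the floor, and the summed signal of all 7 was 365.5, 364, 405 and 369 on low-iron arrays 1 to 4. MGA1, which resembles heat shock factor, was also near the floor, at 33.5 and 50.1 against 98.4 and 86.1 (-1.15).

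A further 8 genes higher on arrays 3 and 4 are named without a role here. RRT5, COS111, BSC1, PRM7 and EGO4 differed by -1.76, -1.73, -1.66, -1.53 and -1.41, and YAL037W and YGR121W-A by -1.33 and -1.07. PRM7 was the brightest of them, at 296 and 720 on arrays 1 and 2 and 1293 and 1387 on arrays 3 and 4, with 1700 to 2159 in high iron. The eighth, YER138W-A, has a probe set shared by similar sequences and read 699, 1576, 2969 and 1614 on low-iron arrays 1 to 4. Its pairs do not overlap only because array 2 lay 0.03 below array 4, so its difference of -1.06 rests on arrays 1 and 3.

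**Figure D2:**
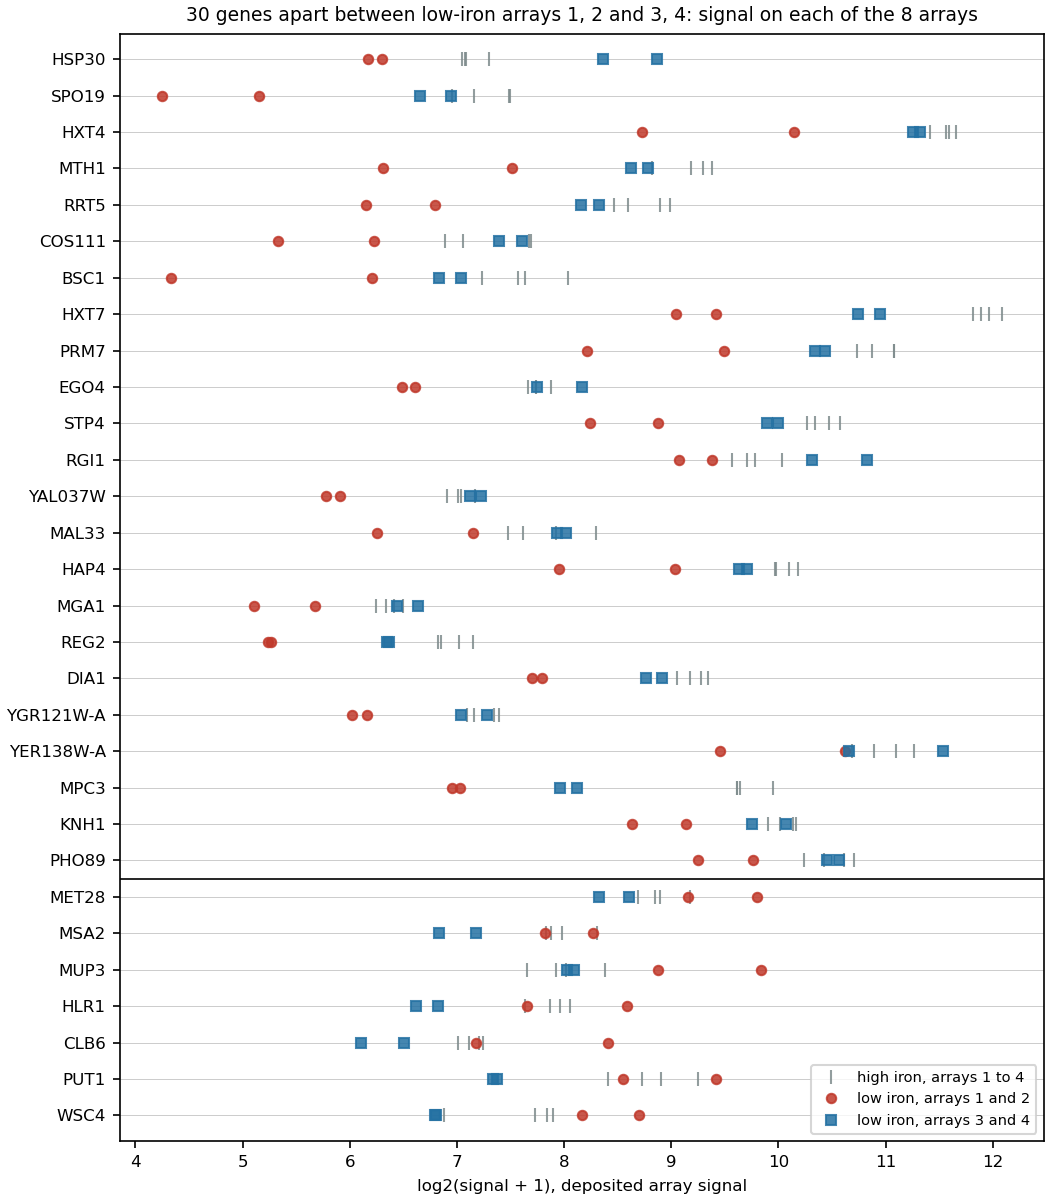
Signal, as log2(signal + 1), of the 30 genes apart on each array: red circles, low-iron arrays 1 and 2; blue squares, low-iron arrays 3 and 4; grey ticks, the 4 high-iron arrays. The 23 genes above the line read higher on arrays 3 and 4 and the 7 below it higher on arrays 1 and 2, and the high-iron arrays of most upper genes lie with or beyond the blue squares.

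The 7 genes higher on arrays 1 and 2 came from cell wall sensing, nitrogen and sulphur use and the cell cycle. WSC4, of the family of cell wall stress sensors, read 415 and 286 on low-iron arrays 1 and 2 and 111 and 110 on arrays 3 and 4, and 116 to 237 in high iron. PUT1, proline oxidase, which opens the use of proline as a nitrogen source, read 683 and 373 against 165 and 161, and 339 to 608 in high iron. Both differed by 1.63. The high-iron values of PUT1 lay within the range of arrays 1 and 2 or just below it, well above arrays 3 and 4, and those of WSC4 were spread from the level of arrays 3 and 4 upward.

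CLB6, a cyclin that starts DNA replication, read 340 and 144 on low-iron arrays 1 and 2 and 90.1 and 68.0 on arrays 3 and 4, a difference of 1.49, and 127.5 to 150.5 in high iron. MSA2, a co-regulator of transcription in G1, read 308 and 225 against 144 and 113 (1.04), and 226 to 315 in high iron. For CLB6 array 1 stood above array 2 by 1.23. MUP3, a low-affinity methionine permease, read 915 and 468 against 271 and 260 (1.30), and 200 to 333 in high iron. MET28, a partner of the sulphur regulator Met4, read 891 and 569 against 388 and 320 (1.01), and 411 to 578 in high iron. HLR1 read 384 and 200 against 113 and 97.3 (1.40), and 198 to 264 in high iron. Array 1 was the highest of the 4 for all 7 genes.

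The high-iron arrays lay nearer to arrays 3 and 4 for 24 of the 30 genes apart and nearer to arrays 1 and 2 for 6. Over all measured genes they were nearer arrays 3 and 4 for 61.7%. The directions differed in count: for genes higher on arrays 3 and 4 the high-iron mean was nearer that pair for 21 of 23 genes, and for 12 of them it lay beyond all 4 low-iron values. For genes higher on arrays 1 and 2 it was nearer arrays 3 and 4 for 3 of 7 (WSC4, MUP3 and MET28), and it was inside the low-iron range for 6. For WSC4 it lay near the midpoint of the pairs, with high-iron array 1 at 116 and the others at 211 to 237. Over all measured genes the high-iron mean was beyond the range on the side of arrays 3 and 4 for 37.1% and inside it for 41.6%. Genes picked for a wide low-iron range hold that mean within it more readily. The wider sets with a difference of at least 0.5 gave 128 of 148 and 67 of 129 nearer arrays 3 and 4. The difference between the directions was not tested, since the pairs were chosen on these arrays. Over the 4 high-iron arrays, which the choice of genes did not use, the median SD of the 30 genes was 0.17, and that of all measured genes was 0.08. These sets were not matched for signal, and several of the 30 genes were dim, where signals are measured least well. Whether their SD is wider than that of other genes of like signal was not tested.

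The study's own comparison is low against high iron. By limma with Benjamini-Hochberg adjustment over 5412 genes, 907 genes (16.8%) were higher in low iron and 1226 (22.7%) lower, a split of 1209 and 1064 after quantile normalization and of 1142 and 1066 after median centring. Of the 30 genes apart, 11 were called lower in low iron, none higher, and 19 were not called. The 11 were all among the 23 genes higher on arrays 3 and 4. HXT7 was lower in low iron by a log2 difference of -1.90 ± 0.37 (SE, n = 4 and 4; limma adjusted p = 0.00244), MPC3 by -2.19 ± 0.25 (8.33e-05), REG2 by -1.16 ± 0.26 (0.00587) and DIA1 by -0.92 ± 0.25 (0.0163), with no overlap between low and high iron. These 4 kept their call without each of the 8 arrays in turn.

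The other 7 calls were each lost when some single array was left out, with fitted differences mostly close to those of all arrays. MTH1 (-1.36 ± 0.45) and HAP4 (-0.97 ± 0.32) had a limma adjusted p of 0.0363 and 0.0331 from 4 and 4 arrays, and 0.0926 and 0.0742 without low-iron array 2. Leaving out any of the 4 high-iron arrays also ended both calls, with adjusted p up to 0.0865 and 0.0813. SPO19 lost its call without low-iron array 1 or 2 or any high-iron array, BSC1 and PRM7 without low-iron array 2 or high-iron array 1, 2 or 4, STP4 without low-iron array 2 or high-iron array 4, and RRT5 without high-iron array 2 or 3. The highest limma adjusted p of these 5 was 0.086, 0.0866, 0.0632, 0.0574 and 0.0638. Where the call was lost, the log2 difference was -1.26 to -1.48 for MTH1, -0.93 to -1.01 for HAP4, -1.38 to -1.55 for BSC1, -1.27 to -1.34 for PRM7, -1.30 to -1.33 for RRT5, -1.04 to -1.11 for STP4 and -1.02 to -1.63 for SPO19. HXT4 was not called with all arrays (-1.19 ± 0.47, limma adjusted p = 0.0674), and it was called without low-iron array 1 (0.0483), 3 (0.0225) or 4 (0.0341). Another 9 genes without a call gained one when 1 array was left out. Without low-iron array 1, HLR1, MSA2 and PUT1 were called lower in low iron, with log2 differences of -0.85, -0.72 and -1.07 (limma adjusted p of 0.00909, 0.0169 and 0.0123). Without low-iron array 3, EGO4, KNH1, PHO89, YAL037W, YER138W-A and YGR121W-A were called lower, with limma adjusted p from 0.00869 to 0.0488. The other 9 genes were not called in any of these fits.

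Fitted without low-iron arrays 1 and 2, 2099 genes differed between low and high iron by limma, and without arrays 3 and 4, 2667 did. Both fits use the same high-iron arrays, so their values are set side by side with no test between the lists of calls. A gene has opposite signs in them whenever its high-iron mean lies between the means of the pairs. Genes picked for a wide difference of the pairs meet this more readily. Of 5412 genes, 25 were called in both fits with opposite signs, and the genes named next are among them. HSP30 read higher in low iron by 1.49 when only arrays 3 and 4 stood for it and lower by 0.89 (a log2 difference of -0.89) when only arrays 1 and 2 did, while the fit of all arrays gave 0.30 ± 0.54 (SE, limma adjusted p = 0.687). RGI1 gave 0.80 and -0.54 in the same order, MET28 -0.44 and 0.57, and WSC4 -0.78 and 0.85. With all 4 low-iron arrays the log2 differences of RGI1, MET28 and WSC4 were 0.13, 0.07 and 0.03, and none was called (limma adjusted p of 0.777, 0.854 and 0.958). LTV1 and DHR2, which act in ribosome assembly and were chosen here after their values were seen, gave 0.38 and -0.46, and 0.29 and -0.48.

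Genes for making ribosomes read higher on arrays 3 and 4 as a group, by a modest amount. Of 53 measured genes on a list of ribosome assembly factors, 47 had pairs without overlap higher on arrays 3 and 4 and none had the reverse, where 22.4% of all measured genes had that direction. The median difference was -0.39, and 8 members were higher on arrays 3 and 4 by at least 0.5 without overlap, as 2.9% of all measured genes were. MAK16, a factor of the large subunit, read 353 and 453 on low-iron arrays 1 and 2 and 669 and 667 on arrays 3 and 4 (-0.74), and 522 to 707 in high iron. NOP15, another factor of the large subunit, read 1586 and 1779 against 2981 and 2540 (-0.71), and 2309 to 2983 in high iron. The high-iron mean was nearer arrays 3 and 4 for 39 of the 53, against 61.7% of all measured genes.

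The same held for RNA polymerases I and III, which transcribe ribosomal and transfer RNA. Of 19 measured subunits 18 had pairs without overlap higher on arrays 3 and 4, against 22.4% of all measured genes, with a median of -0.33. RPO31, the largest subunit of polymerase III, read 945 and 896 against 1258 and 1352 (-0.50). RPC31, another polymerase III subunit, differed by -0.51, with values that overlapped. For the structural proteins of the ribosome, the median of 122 cytosolic ribosomal protein genes was 0.03. Without overlap 17 were higher on arrays 1 and 2 and 3 on arrays 3 and 4, against 34.7% and 22.4% of all measured genes, and 102 overlapped. That median was -0.02 after one of the other scalings and ranged from -0.01 to 0.07 without each low-iron array in turn. Ribosomal RNA probe sets read higher on arrays 3 and 4 as well, as given above, and the part of that in these list differences was not tested.

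**Figure D3:**
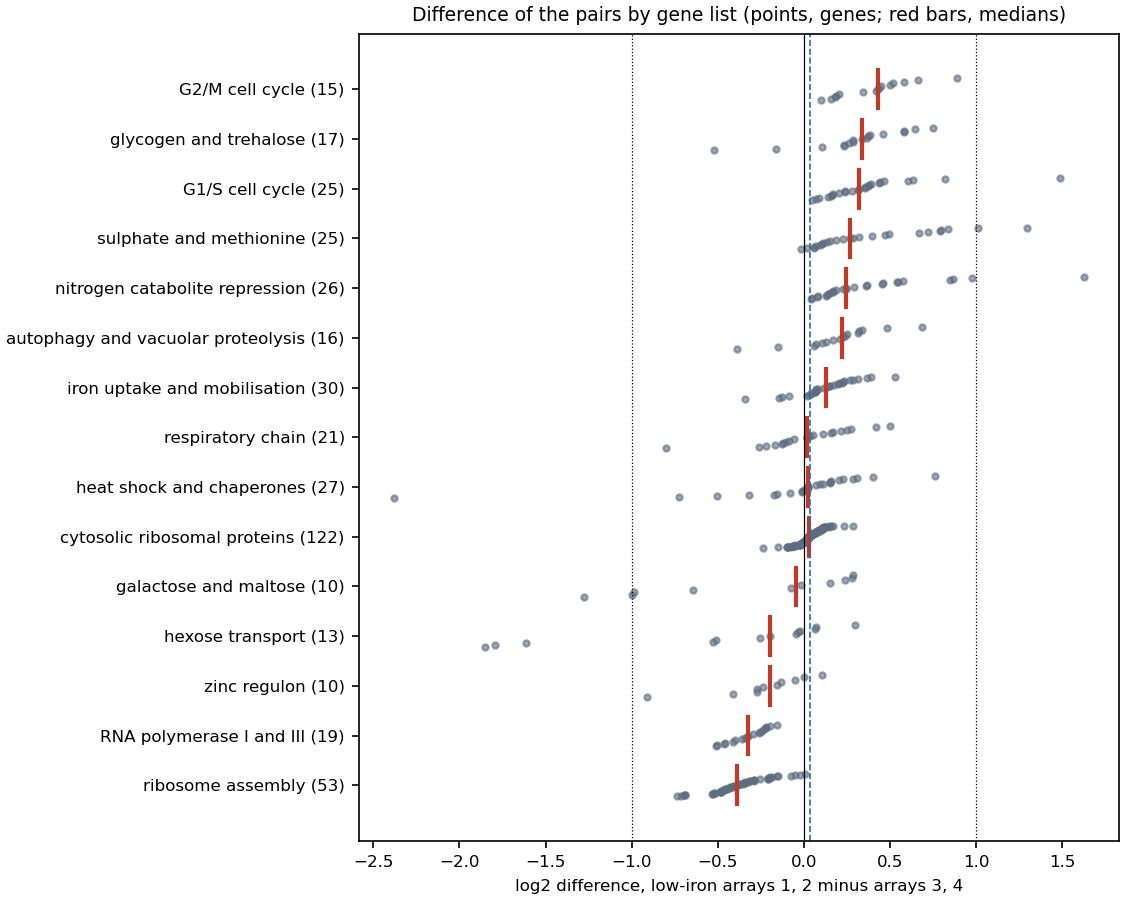
Log2 difference of the pairs (low-iron arrays 1 and 2 minus arrays 3 and 4) for 15 gene lists: grey points, measured genes; red bars, list medians; dashed line, the median of all 5100 measured genes; dotted lines, differences of 1 in size; the number of measured genes is in brackets. Ribosome assembly and RNA polymerase genes lie to the left, cell cycle, sulphate and nitrogen genes to the right, and ribosomal proteins at 0.03.

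Cell cycle genes read higher on arrays 1 and 2. Of 15 measured genes of the G2 and M phases, 13 had pairs without overlap higher on arrays 1 and 2 and none the reverse, where 34.7% of all measured genes had that direction, and the median difference was 0.43. HST3, a histone deacetylase, read 364 and 249 against 172 and 153 (0.89). SWI5, a transcription factor of late mitosis, read 520 and 486 against 315 and 319 (0.66). Genes of the step from G1 to S gave 20 of 25 without overlap, none the reverse, and a median of 0.32. Beside CLB6 they included the repressor YOX1, at 353 and 249.5 against 167 and 169 (0.82), the cohesin subunit MCD1 (0.63) and the cyclin CLB5 (0.61).

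The summed signal of 3 G1 to S markers, CLN1, CLN2 and RNR1, was 3925 and 3593 on low-iron arrays 1 and 2, 2935 and 2842 on arrays 3 and 4, and 3418 to 3656 in high iron. That of 3 G2 and M markers, CLB1, CLB2 and CDC20, was 2340 and 2080 against 1685 and 1658, and 1967 to 2186 in high iron. Both sets of markers thus separated the pairs the same way. The histones HTA1, HTB1 and HHF1, which mark S phase, did not: their sum was 15126, 14985, 14063 and 15915 on arrays 1 to 4. The median of 9 histone genes was 0.01. Genes active at the end of mitosis and in G1 had a median of 0.10 over 22, and the replication factor CDC6 had the largest difference of them, with 390 and 254 against 155 and 180 (0.91).

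Genes for sulphate and methionine read higher on arrays 1 and 2. Of 25 measured, 20 had pairs without overlap in that direction and 1 the reverse, against 34.7% and 22.4% of all measured genes, and the median was 0.27. Of the 25, 7 were higher on arrays 1 and 2 by at least 0.5 without overlap, against 2.53% of all measured genes. SUL2, a sulphate permease, read 2844 and 2388 against 1484 and 1430 (0.84), and 969 to 1325 in high iron. MET2, which makes O-acetylhomoserine, the carbon backbone for homocysteine, read 2022 and 1616 against 1046 and 1032 (0.80), and 483 to 663 in high iron. MHT1, a homocysteine methyltransferase, read 546 and 438 against 290 and 275 (0.79), and 201 to 237 in high iron. SUL2, MET2 and MHT1 were also higher in low than in high iron over all arrays, by 0.78, 1.23 and 0.76 (limma adjusted p of 0.0132, 0.00102 and 0.0113), and the high-iron mean was nearer arrays 3 and 4 for 20 of the 25, against 61.7% of all measured genes.

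Nitrogen genes had the same direction but a different place for high iron. Of 26 measured genes under nitrogen catabolite repression, 20 had pairs without overlap higher on arrays 1 and 2, against 34.7% of all measured genes, none the reverse, and the median was 0.24. DAL80, a repressor of these genes that is itself repressed by good nitrogen sources, read 1020 and 694 against 461 and 395 (0.98), and 536 to 921 in high iron. MEP1, an ammonium permease, read 858 and 548 against 396 and 358 (0.86), and 545 to 723.5 in high iron. DUR3, a urea permease, read 565 and 447 against 311 and 249 (0.85), and 311 to 341 in high iron. The high-iron mean was nearer arrays 1 and 2 for 19 of the 26, as it was for 1954 of all 5100 measured genes. For MEP3, another ammonium permease, array 1 alone was high, at 386 against 173, 182 and 172 on the other 3.

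**Figure D4:**
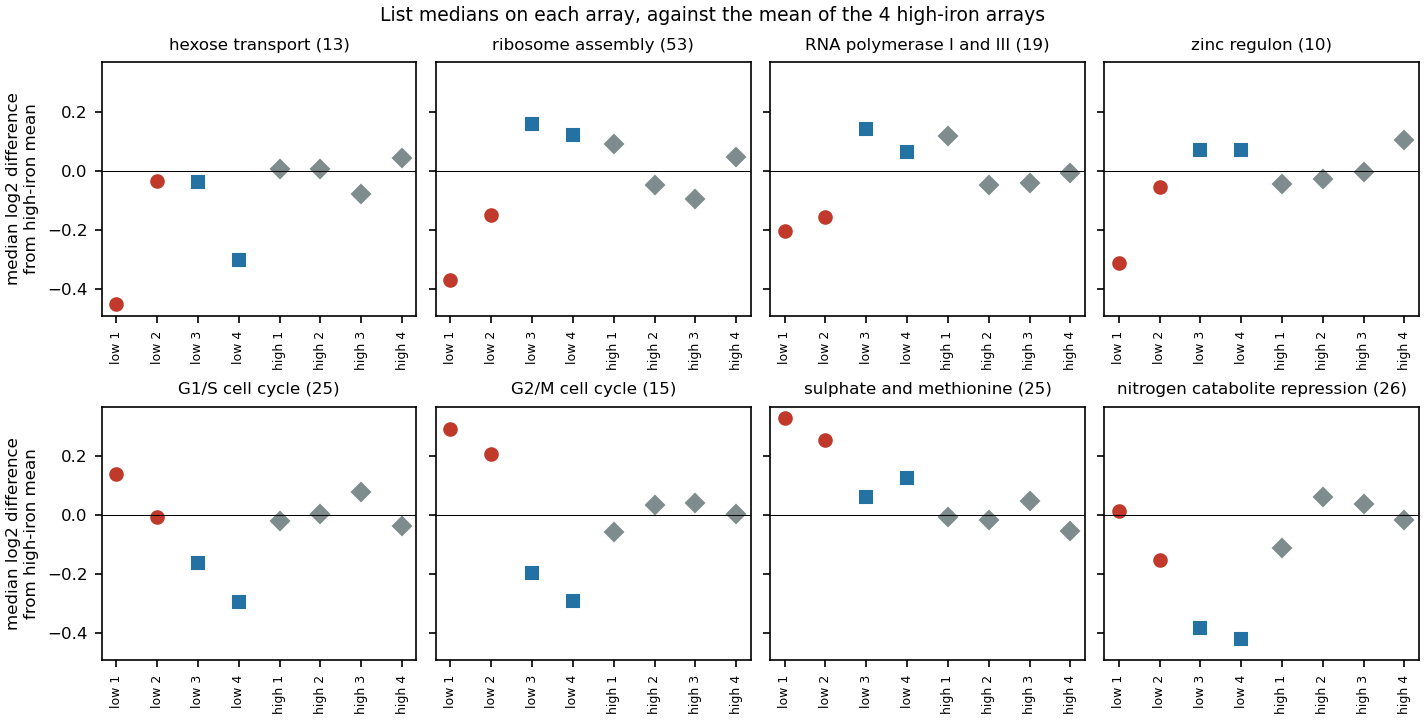
Median log2 difference from the mean of the 4 high-iron arrays for 8 gene lists on each array: red circles, low-iron arrays 1 and 2; blue squares, low-iron arrays 3 and 4; grey diamonds, high-iron arrays; measured genes in brackets. Ribosome assembly runs from -0.37 on low-iron array 1 to 0.16 on array 3, and G2 and M genes from 0.29 on array 1 to -0.29 on array 4, on both sides of high iron.

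On each low-iron array, list medians against the high-iron mean show which cultures moved away from high iron. For ribosome assembly they were -0.37, -0.15, 0.16 and 0.12 on low-iron arrays 1 to 4, and -0.10 to 0.09 on the high-iron arrays. For G2 and M genes they were 0.29, 0.20, -0.19 and -0.29, with -0.06 to 0.04 in high iron. In these lists the high-iron level lay between the pairs. For sulphate and methionine genes they were 0.33, 0.25, 0.06 and 0.12, so that arrays 1 and 2 were the more distant, and for nitrogen genes they were 0.01, -0.15, -0.38 and -0.42, so that arrays 3 and 4 were.

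Reserve carbohydrate genes also read higher on arrays 1 and 2, with a median of 0.34 over 17 measured genes of glycogen and trehalose, of which 15 were higher without overlap on arrays 1 and 2 and 2 on arrays 3 and 4, against 34.7% and 22.4% of all measured genes. GSY1, glycogen synthase, read 269 and 214 against 145 and 140 (0.75), and 217.5 to 449 in high iron. TSL1, of the trehalose synthase complex, read 769 and 841 against 496 and 533 (0.64). This list also varied among the high-iron replicates. Its medians against the high-iron mean were -0.15, 0.01, 0.17 and 0.04 on high-iron arrays 1 to 4. They were 0.13, 0.19, -0.04 and -0.19 on low-iron arrays 1 to 4. The median SD of its genes over the high-iron arrays was 0.16, against 0.08 for all measured genes. Autophagy and vacuolar protease genes had 12 of 16 higher without overlap on arrays 1 and 2, against 34.7% of all measured genes, a median of 0.22, and ATG9 and ATG19 as the largest differences, of 0.69 and 0.48.

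Zinc genes had the opposite direction, with a median of -0.20 over 10 measured and 7 higher without overlap on arrays 3 and 4, against 22.4% of all measured genes. That median ranged from -0.28 to -0.09 without each low-iron array in turn. ZRT1, the high-affinity zinc permease, read 835 and 1421 on low-iron arrays 1 and 2 and 2340 and 1798 on arrays 3 and 4 (-0.91). It varied nearly as much in high iron, from 882 on array 1 to 1497, 1809 and 2057 on the others, and its low-affinity relative ZRT2 differed by -0.41. Other lists held single genes of similar size. INO1, which makes inositol phosphate, read 562 and 545 against 1023 and 838 (-0.74), and GAS2, a cell wall glucan enzyme of sporulation, 90.3 and 81.0 against 131 and 171 (-0.80). URA3, of pyrimidine synthesis, read 491, 196, 497 and 679 on low-iron arrays 1 to 4, so its difference of -0.90 rests on array 2.

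Phosphate (median -0.02), glycolysis (0.09), proteasome (0.04), unfolded protein response (0.06), transfer RNA charging (0.02) and general stress genes (0.08) had medians close to that of all measured genes. The 30 measured pheromone response genes had a median of 0.08, and 1 was higher on arrays 1 and 2 by at least 0.5 without overlap, as 2.53% of all measured genes were. That gene was GIC2, at 1419 and 1220 against 843 and 922 (0.58). Across 56 lists with 1046 measured genes, the medians lay between -0.39 and 0.43. The medians of ribosome assembly, polymerase, hexose and zinc genes stayed below 0, and those of cell cycle (G1 to S, G2 and M), sulphate, nitrogen, reserve carbohydrate and autophagy genes above 0, without each low-iron array in turn and under the other scalings tried. The hexose median went from -0.36 to -0.04 in this, so its place beside all genes rests on which array is left out.

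Most genes of the iron regulon itself differed little between the pairs of low-iron arrays. All 30 measured genes of iron uptake and mobilisation were higher in low than in high iron by limma, with a median of 1.67. None had pairs without overlap that differed by at least 0.5, as 2.9% of all measured genes did with arrays 3 and 4 higher and 2.53% the reverse way. The largest difference was that of LSO1, which read 328, 584.5, 353 and 260 on low-iron arrays 1 to 4 (0.53), with pairs that overlapped. Its arrays 2 and 4 were 1.16 apart. MRS4 came next, with 1647, 1670, 1384 and 1157 (0.39). FIT1, a cell wall mannoprotein that holds siderophore iron, read 5597, 6230, 5118 and 5330 on low-iron arrays 1 to 4 and 78.9 to 196 in high iron (5.71, limma adjusted p = 6.8e-08). FET3, the multicopper oxidase of reductive uptake, read 5200, 5140, 4288 and 5094 against 1847 to 2177. FRE2, a ferric reductase, read 3593, 4030, 3248 and 3220 against 112 to 131, and HMX1, haem oxygenase, 3524, 3760, 2953 and 2913 against 234 to 285. Of the 30, 17 were higher without overlap on arrays 1 and 2 and 4 on arrays 3 and 4, where 34.7% and 22.4% of all measured genes were, and the list median was 0.13. FIT1, FIT2 (5453 to 6313), FIT3 (4917 to 5587) and FTR1, the permease partner of FET3 (5228 to 5943), were near the top of the array's range, where differences can be compressed.

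Genes that are low in low iron differed among the cultures in another order. CYC1, cytochrome c, read 90.7, 40.1, 58.0 and 59.8 on low-iron arrays 1 to 4 against 820 to 1004 in high iron. CCP1, cytochrome c peroxidase, read 232, 115, 147 and 134.5 against 1519 to 1644, SDH1, of succinate dehydrogenase, 178, 121, 139 and 117 against 868 to 1118, and HEM15, ferrochelatase, 972, 638, 694 and 727 against 2174 to 2645. Array 1 was the highest of the 4 for these genes, and array 2 was the lowest or next to the lowest, so that the pairs overlapped. GLT1, glutamate synthase, read 557.5, 462, 427 and 476 against 2515 to 3028, and BIO2, biotin synthase, 455, 429, 519 and 479 against 1602 to 1862. CCC1, the vacuolar iron importer, read 283 to 331 on all 4 against 938 to 1097. The changes of these 7 genes with iron were between -3.88 and -1.71, with limma adjusted p from 1.9e-08 to 2.8e-06.

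**Figure D5:**
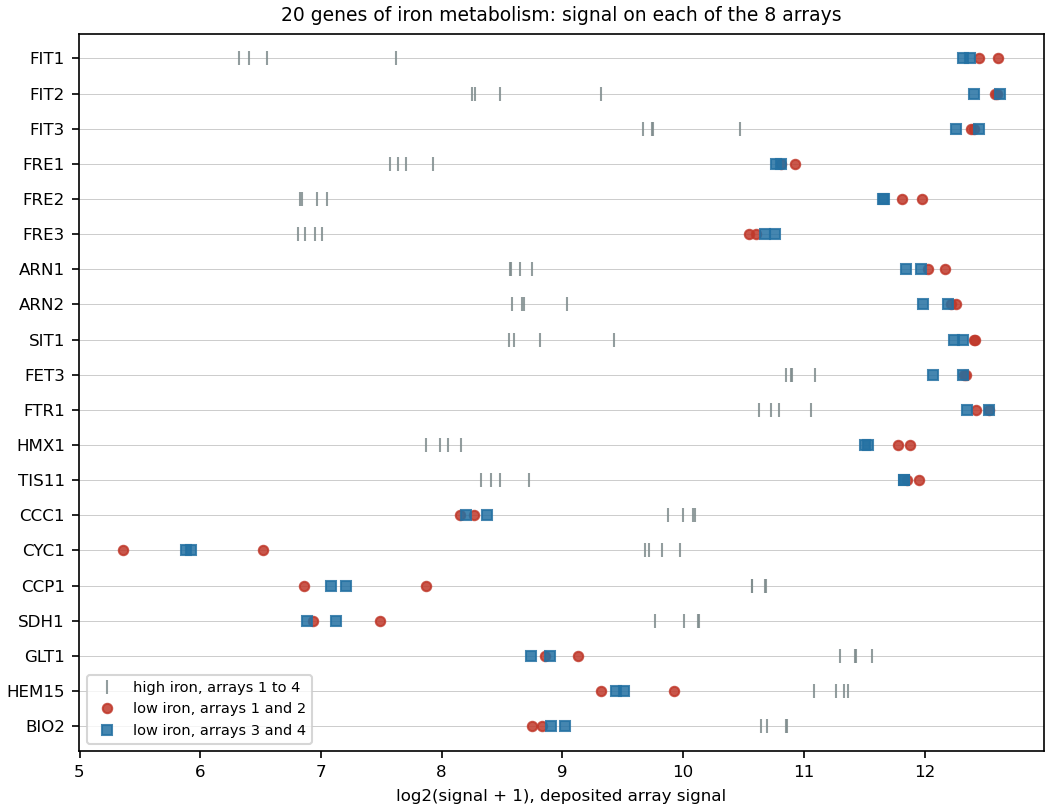
Signal, as log2(signal + 1), of 20 genes of iron metabolism on each array: red circles, low-iron arrays 1 and 2; blue squares, low-iron arrays 3 and 4; grey ticks, the 4 high-iron arrays. Low and high iron do not overlap for any of the 20, and the pairs of low-iron arrays differ by at most 0.31 in their means.

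Of the 46 genes called with at least a 4-fold change between low and high iron, 38 were measured in low iron, and 1 of them, MPC3, was apart between the pairs. Another 3 differed by at least 0.5 without overlap. The median size of the difference of the pairs was 0.19 for these 38 genes and 0.13 for all measured genes.

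The genes whose 8 values most resembled those of the leading gene in each direction were picked by Pearson's r over the arrays, as a description. For WSC4 they were APM2 (r = 0.99) and XKS1 (0.98), with differences of 0.24 and 0.75, and for HSP30 they were RET1 (0.96), a subunit of RNA polymerase III, and DIS3 (0.95), a subunit of the RNA exosome, with -0.34 and -0.22. Along the chromosomes, 3 pairs of neighbours were apart in the same direction, PHO89 with MAL33, KNH1 with STP4, and PRM7 with BSC1. Neighbours here are next to each other among measured genes, and genes not measured were skipped. These are 6 of the 30 genes apart (20%), where 60 of 5100 measured genes (1.18%) lie next to a gene apart. Chromosome medians of the difference lay between 0.02 and 0.08.

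The signal floor set some members. Just above 50 lay REG2, with a mean of 59.0, and MGA1, with 67.0. Just below it lay ZNF1, a zinc finger transcription factor, with a mean of 35.2 and a difference of -1.12, and GAC1, which targets Glc7 to glycogen synthase, with 25.4 and -1.15. In all, 9 genes at or under the floor would otherwise have been apart, all of them higher on arrays 3 and 4. Without a floor the counts were 32 higher on arrays 3 and 4 and 7 higher on arrays 1 and 2. Of the measured genes, 28 were above the floor on average through 1 pair only, and 4 of these were apart, so for them the floor and the difference are linked. These 4, SPO19, BSC1, MGA1 and REG2, were above it through arrays 3 and 4 only. The counts given for the 23 genes higher on arrays 3 and 4, also those against high iron, include them.

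The samples carry numbers in the labels, whose meaning is not stated. Numbers 3837 to 3839 belong to low-iron arrays 2 and 4 and high-iron array 4, and 3840 to 3844 to the other arrays, so each range holds 1 array of each pair. Array 2 against 4 gave 11 genes at least 1 higher on array 2 and 18 higher on array 4, and array 1 against 3 gave 23 and 51. Of the 30 genes apart, 18 differed by at least 1 in the same direction within the first range and all 30 within the second. List medians had the same sign in both ranges for the lists that stood out: ribosome assembly gave -0.26 for array 2 minus 4 and -0.51 for array 1 minus 3, G2 and M genes 0.31 and 0.37, sulphate genes 0.24 and 0.41, and nitrogen genes 0.21 and 0.37. The difference of the pairs is the mean of array 1 minus 3 and array 2 minus 4, and these genes and lists were picked by it. Their shared direction in both ranges was thus largely set in advance and is no separate support.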

How the data were processed

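Per the labels' protocols, biotin-labelled RNA of 8 independent cultures went onto Affymetrix yeast arrays, 1 per culture, and the deposited values are linear signal intensities per probe set. The submitters' processing notes name MAS5, with settings that the sources used here do not give. No further scaling was applied. Of 10928 probe sets, 5498 matched 1 S. cerevisiae gene (RefSeq names), and the brightest on the low-iron arrays was kept for each of 5449 genes. Differences of pairs were taken on log2(signal + 1), where the added 1 shrinks those of dim genes only slightly, and were not tested. With a pseudocount of 64, 14 of the 30 genes apart differed by less than 1. Low and high iron were compared in R 4.3.3 with limma 3.58.1 (a linear model per gene, variances moderated with an intensity trend, two-sided, threshold 0.05) for genes whose mean over 8 arrays exceeded 5.48, the 95th percentile of S. pombe probe sets. Both procedures were run on simulated data as a check of the code. There every gene had the same spread and the changed genes were bright, so it does not show how well dim genes are called. Figures used matplotlib 3.10.9. The number of arrays limits the precision.

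The pairs, gene lists and rules were chosen with earlier results of these data known. Named genes are those apart (up to 20 per direction), up to 6 members by size of difference in lists with a gene apart and up to 2 in others, 20 fixed iron genes, mating-type markers, genes at the floor, closest profiles, and genes whose iron call turns between pairs. Named outside this rule, after their values were seen, are the 3 last genes higher on arrays 3 and 4, HXT1, MAL13, LTV1 and DHR2. Promoter motifs were not searched. Alternatives covered pseudocounts (16, 64), scaling, floor, probe set choice, single arrays and ranges of sample numbers.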

Additional observations from a re-analysis of the deposited data

Results flagged for a closer look

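Of 242 groups of 4 arrays, 1 per named gene and iron level, 8 had a sample whose gap to the nearest other was above Dixon's 95% critical value for a share of the range, where chance gives about 1 group in 20. In low iron these were MEP3, high on array 1 (386 against at most 182), and FET3, low on array 3 (4288 against at least 5094). In high iron, array 1 was high for MPC3 (987) and FIT3 (1415) and low for WSC4 (116), YOX1 (334) and INO1 (1115), and array 4 was high for HSP30 (157). High-iron array 1 is thus the sample in 5 of the 8. The 8 flagged groups are fewer than that chance share of the 242, so they do not mark any array as unusual.

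Reporter control probe sets, which are in no comparison above, were near background on array 1 of each iron level and bright on the other 6 arrays. For 3 probe sets of one reporter sequence the signals were 1.68, 3.80 and 0.444 on low-iron array 1 and 25.9, 6.94 and 11.5 on high-iron array 1, against 1102 to 3144 elsewhere. For 1 probe set of another they were 1.86 and 6.16, against 381 to 532. Low-iron array 2, which was grouped with array 1 above, did not share this. Its part in the differences of the low-iron arrays was not tested.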

How the results depend on the processing

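Counts of genes apart, higher on arrays 1 and 2 and on arrays 3 and 4, were 7 and 23. The second became 11 with a pseudocount of 64, and the genes with high iron nearer arrays 3 and 4 went from 24 to 11. With differences of at least 0.5 the counts were 129 and 148, and of at least 2 they were 0 and 2. Without each low-iron array in turn they ranged from 4 to 24 and from 19 to 41, with 18 to 48 genes having high iron nearer arrays 3 and 4 and 5 to 17 nearer arrays 1 and 2; the highest counts came without array 2. Array 2 against 4 gave 11 and 18, and array 1 against 3 gave 23 and 51, with 58 and 16 genes having high iron nearer arrays 3 and 4 and nearer arrays 1 and 2. Pseudocount 16, both scalings, the other floors and the other probe set choices kept each count within 1.5 times. In the other settings for which it was counted, high iron was nearer arrays 3 and 4 for more of the genes apart than arrays 1 and 2. Of the 2 genes with a difference of at least 2, HSP30 had high iron nearer arrays 1 and 2 and SPO19 nearer arrays 3 and 4.

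Calls for low against high iron with a change of at least 1 numbered 74 higher and 149 lower; without each array in turn all calls ranged from 693 to 1005 higher and 993 to 1301 lower. The sign turned, with a call on 1 side, without arrays 1 and 2 for ATG19 (-0.21), DHR2 (0.29), HST3 (-0.28), LTV1 (0.38), MET28 (-0.44), RPO31 (0.19) and WSC4 (-0.78), and without arrays 3 and 4 for HSP30 (-0.89) and RGI1 (-0.54); the arrays left out are those that differ by construction. No paired analysis was possible because the labels give no replicate numbers that pair low-iron with high-iron cultures. Genes near the floor are measured least well.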

Other observations

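Several gene groups that are not described above leaned one way by small amounts. Of 43 measured genes for mitochondrial ribosomal proteins, 15 had pairs without overlap higher on low-iron arrays 3 and 4 and none the reverse, with a median difference of -0.09, while 22.4% of all measured genes had that direction. Translation factors had the same median of -0.09 over 21 genes. Without overlap, 8 were higher on arrays 3 and 4 and 1 on arrays 1 and 2, against 22.4% and 34.7% of all measured genes. Without each low-iron array in turn the first median ranged from -0.14 to -0.02 and the second from -0.10 to -0.06, so their sizes rest on single arrays.

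Groups with the opposite lean were retrograde response genes, which answer to mitochondrial state, with 9 of 10 higher without overlap on arrays 1 and 2 and a median of 0.17, and ergosterol synthesis genes, with 19 of 25 and a median of 0.12. Here 34.7% of all measured genes had that direction. On the low-iron arrays 1 to 4 the median of the ergosterol genes against the high-iron mean was 0.15, 0.17, 0.07 and 0.06. For retrograde response genes it was 0.24, 0.28, 0.09 and 0.08, so arrays 1 and 2 were above arrays 3 and 4 in each.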
